A study of Mus musculus with 2 samples.

Results

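Distant upstream regions that carry the histone variant macroH2A1 were described in the mouse embryonic stem cell line E14, which is established from an early embryo and can form all its tissues. They are the rows of the deposited peak list that lie upstream of a gene with a symbol and more than 50 kb (50000 bp) from it. There were 253 such far upstream peaks among 2560 peaks in all (9.88%, 95% Wilson interval 8.79 to 11.1%), and they were assigned to 220 genes. The series holds 2 libraries of chromatin immunoprecipitation and sequencing, 1 made with an antibody raised against part of mouse macroH2A1 and 1 made with non-specific IgG. The cells of both were untreated and kept in serum with leukemia inhibitory factor. Each group is 1 library, and the only peak list is that of the macroH2A1 library. Whether the IgG library served as its control is not given in the sources used here. Every value below is a description of the peak list, without a test between conditions. Intervals cover counting error only.

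MacroH2A1 is a form of histone H2A with a long extra domain, the macro domain, at its end. It replaces ordinary H2A in part of the nucleosomes and is best known from the inactive X chromosome and from silent or developmentally regulated chromatin. Distal regulatory elements of developmental genes often lie in gene-poor stretches far from the gene they act on, so the gene with the nearest start need not be the one that a distant region serves.

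The starts of 3 genes are shown as landmarks near the points from which distances are counted. Each is 250 bases upstream of the RefSeq start (GRCm38.p6) with each CpG, the letters CG, in capitals. The genes are the protocadherins Pcdh17 and Pcdh10, which had the farthest peaks, and Actrt2, an actin-related gene whose far upstream peaks spanned the shortest length from end to end.
Pcdh17: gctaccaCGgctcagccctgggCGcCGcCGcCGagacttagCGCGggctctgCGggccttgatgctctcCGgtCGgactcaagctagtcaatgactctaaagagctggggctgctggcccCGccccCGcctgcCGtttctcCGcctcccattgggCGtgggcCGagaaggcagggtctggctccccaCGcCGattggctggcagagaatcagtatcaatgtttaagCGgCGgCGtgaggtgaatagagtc
Pcdh10: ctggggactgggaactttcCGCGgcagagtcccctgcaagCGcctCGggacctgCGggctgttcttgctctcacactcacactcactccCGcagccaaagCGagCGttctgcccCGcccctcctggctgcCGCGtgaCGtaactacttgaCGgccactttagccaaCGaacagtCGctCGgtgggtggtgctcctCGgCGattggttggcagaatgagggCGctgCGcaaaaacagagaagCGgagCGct
Actrt2: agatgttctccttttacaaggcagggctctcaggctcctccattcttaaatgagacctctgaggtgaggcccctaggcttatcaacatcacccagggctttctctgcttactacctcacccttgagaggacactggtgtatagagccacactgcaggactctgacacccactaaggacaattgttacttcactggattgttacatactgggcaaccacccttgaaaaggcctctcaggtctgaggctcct
These windows are chr14:84443313-84443562 on the plus strand, chr3:45378148-45378397 on the plus strand and chr4:154667868-154668117 on the minus strand. This build is later than the mm9 build of the peaks, and coordinates of these builds are not comparable. The Pcdh17 window held 21 CpGs, the Pcdh10 window 22 and the Actrt2 window 0. Among 17274 protein-coding genes with such a window, 92.8% held at least 1 CpG and the median count was 10 (quartiles 3 and 19). A CpG reads the same on both strands. No comparison of the whole group was made, because a window was at hand for only 145 of its 208 protein-coding genes (69.7%). Sequences of the peaks themselves were not analysed here.

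The annotation was checked before the regions were described. In all 253 rows the deposited distance equals the gap between the gene start and the nearest base of the peak. The 253 regions are distinct, and 23 carry more than 1 symbol. Of the 220 genes, 218 were matched to the RefSeq table by symbol or synonym, of which 208 were protein-coding, 8 were pseudogenes and 2 were long non-coding RNAs. A far upstream peak is not always intergenic. In 4 cases the region lay inside another gene of the same list. Among them, the peak of Zfp397 was inside Mapre2, that of Rasgef1b inside A930011G23Rik and that of Gm9822 inside Myo3b. In a further 8 of 251 peaks with a matched gene (3.19%, 1.62 to 6.16%), the RefSeq gene was longer than the deposited one by more than the distance, so that the peak could lie within the longer model. These were at Arhgap24, Arhgef3, Grik1, Gse1, Nkain2, Pdzrn4, Ralyl and Sema3a. For Nkain2, a brain gene, the deposited length was 262 kb and the RefSeq length 1208 kb, with the peak 95.1 kb from the deposited start. Whether genes outside the peak list cover other far upstream peaks was not tested.

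Distances ranged from 50.2 kb to 1812 kb, with a median of 106 kb (quartiles 70.8 and 188 kb). Between 50 and 75 kb there were 75 peaks, between 75 and 100 kb 42, between 100 and 200 kb 82, between 200 and 500 kb 40, and beyond 500 kb 14, of which 3 were beyond 1000 kb. The peaks just inside the threshold were those of Arhgap24 (50.210 kb), Fzd7 (50.373 kb) and Cyp24a1 (50.705 kb), and those just outside were at Blcap (49.953 kb), Fstl5 (49.920 kb) and Cobl (49.688 kb). The 10 farthest were at 8 genes. Pcdh17 had peaks at 1812 and 1002 kb, Pcdh10 at 1591 kb, and Lrrn3, a neuronal leucine-rich repeat gene, at 911 kb. Brunol4, which encodes an RNA-binding protein of neurons, had peaks at 905 and 759 kb. Mef2c, a transcription factor of heart, muscle and neuron development, had its peak at 777 kb. Chordc1 (728 kb), the predicted gene Gm5849 (611 kb) and Dusp26, a dual-specificity phosphatase gene (591 kb), followed.

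Far upstream peaks were 1051 to 2901 bp wide, with a median of 1551 bp (quartiles 1251 and 1801 bp). The median was 1551 bp for the 247 upstream peaks within 10 kb of named genes and 1601 bp for the 383 at 10 to 50 kb. Peaks wider than 2000 bp made up 27 of the 253 (10.7%), against 37 of 247 (15.0%) and 77 of 383 (20.1%) in those classes. None of these differences was tested, since peaks of 1 library are not replicates. Among the far upstream peaks the median was 1601 bp at 50 to 75 kb, 1501 bp at 75 to 100 kb, 1551 bp at 100 to 200 kb, 1476 bp at 200 to 500 kb and 1351 bp at 500 to 1000 kb. Across the 253 peaks, which share 1 library, width and distance had a Spearman correlation of -0.12.

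The widest region, 2901 bp, lay 72.5 kb upstream of 1700066M21Rik on chromosome 1 (mm9, 57359100 to 57362000). The next, 2851 bp, lay 76.5 kb upstream of Pax2, a regulator of kidney, eye and midbrain development, on chromosome 19 (44752550 to 44755400). Pcmtd1 had a region of 2451 bp at 130 kb and Gm10247 a region of 2301 bp at 115 kb. A region of 2251 bp on chromosome 5 was listed under Rps16 and 2 other symbols, and its gene matched the RefSeq pseudogene Rps16-ps2, not the ribosomal protein gene itself. Pabpc6, Cnksr3 and Actrt2 had regions of 2151 bp, and Ptchd2, Plcb4 (a phospholipase C gene) and Chd9 (a chromatin remodeller gene) had regions of 2101 bp.

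**Figure D1:**
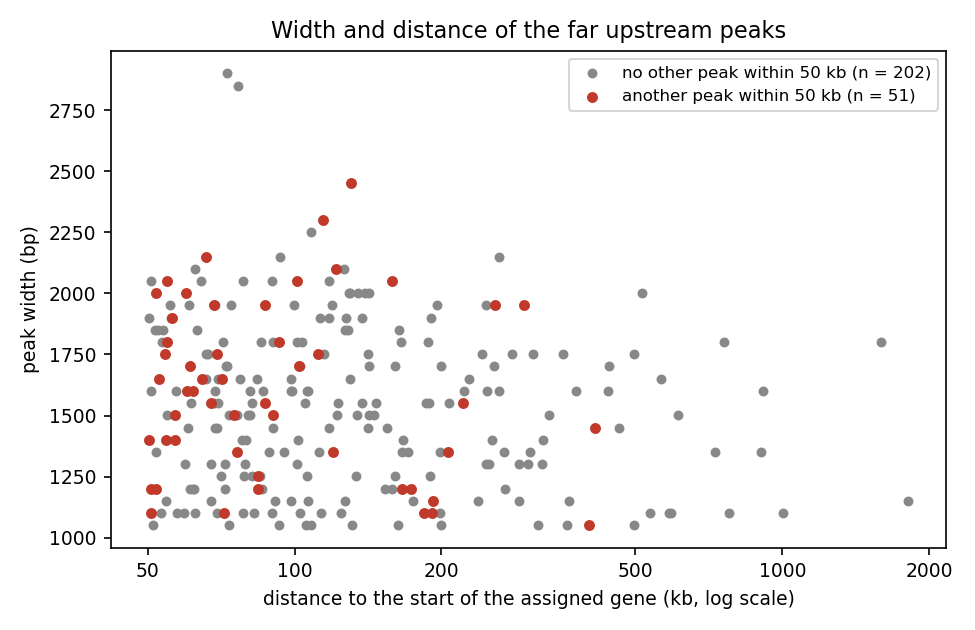
Peak width in bp against how far upstream of its gene it lies, in kb (log scale), 1 point for each of the 253 far upstream peaks. Red points (51) have another peak of the list within 50 kb and grey points do not. No red point lies beyond 500 kb, and the 2 widest regions, at 1700066M21Rik and Pax2, lie below 100 kb.

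The functions of the bordering genes were described with 16 families matched by symbol, which hold 131 of the 253 peaks. Matching by symbol misses some genes of like function, so each count and share covers the matched genes only. Of all 1669 peaks of named genes, 15.2% were far upstream, and each family is given beside that share. The transcription factor families together had 29 of 150 peaks far upstream (19.3%, 13.8 to 26.4%), at 28 genes. Their 3 families differed from each other in this share. Zinc finger, nuclear receptor and other factors had 22 of 76 (28.9%, 20.0 to 40.0%), T-box, forkhead and bHLH genes (listed with Sox and GATA) 5 of 31 (16.1%, 7.09 to 32.6%), and homeobox genes 2 of 43 (4.65%, 1.28 to 15.5%). No test of these differences was made. None of the 29 peaks had another peak within 50 kb. Each gene was counted in 1 family only, so the T-box gene Tbx3 and the bHLH gene Mycn are in the list of pluripotency and stem cell regulators below. With that list added, 34 of 165 peaks were far upstream (20.6%, 15.1 to 27.4%).

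Among the zinc finger, nuclear receptor and other factors, distances ran from 55.7 kb at Casz1, a factor of heart and neural development, to 777 kb at Mef2c. Zfp804a had its peak at 440 kb, Tcfap2d at 257 kb and Trp63, the p53 relative that directs epidermal stratification, at 190 kb. Klf6 had 2, at 288 and 142 kb. Maf, a bZIP factor of lens and lymphocytes, had a peak at 161 kb, Trps1 at 137 kb, Prdm1, a repressor required for germ cell specification, at 134 kb, Nr4a3 at 130 kb and Zfp161 at 101 kb. The remaining members lay nearer, within 90 kb. Gli2, a transcription factor of the Hedgehog pathway, had a peak at 88.7 kb, Klf3 at 81.9 kb, Eya1, which acts in ear and kidney development, at 81.9 kb and Fezf1, a forebrain factor, at 79.1 kb. Zfp397, Zbtb43, Sp8, Bcl11b, Thrb and Mef2a lay between 66.5 and 78.1 kb.

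The 5 peaks at T-box, forkhead and bHLH factors and the HMG-box factor Tcf7l2 had widths of 1451 to 1651 bp. Tcf7l2, an effector of Wnt signalling, had a peak at 83.7 kb, Foxf1a, a mesenchymal forkhead factor, at 81.0 kb, and Foxk1 at 98.4 kb. Tbx5, a heart and forelimb factor, had 1 at 80.9 kb and Atoh1, a regulator of hair cell and cerebellar granule cell development, 1 at 141 kb. The homeobox genes were Pax2 (76.5 kb) and Barx2 (72.4 kb).

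The list of pluripotency and stem cell regulators had 5 of its 15 peaks far upstream (33.3%, 15.2 to 58.3%). Jarid2, a partner of the Polycomb complex PRC2, had a peak at 133 kb and Id2, an inhibitor of bHLH factors, one of 1951 bp at 119 kb. Tbx3 had a peak at 101 kb and Il6st, the shared receptor subunit through which leukemia inhibitory factor signals, at 72.0 kb. Mycn had 1 at 69.6 kb and another at 3.31 kb. The nearest other peak of the list was between 65.2 and 713 kb away for these 5 regions.

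Genes for signalling ligands had 1 of 30 (3.33%, 0.59 to 16.7%), an interval that includes the 15.2% of all named peaks. It was at Vegfc, a lymphatic growth factor, 118 kb from its start. Receptors of signalling ligands had 3 of 21 (14.3%, 4.98 to 34.6%). The Wnt receptor gene Fzd7 had 2 of them, at 50.4 and 75.2 kb, and Csf3r, the receptor of granulocyte colony-stimulating factor, had 1 at 113 kb. Axon guidance genes had 3 of 19 (15.8%, 5.52 to 37.6%), at Sema3d (269 kb), Efna5 (130 kb) and Sema3a (73.4 kb).

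Cell adhesion and synaptic contact genes had 17 of 57 peaks far upstream (29.8%, 19.5 to 42.7%), at 11 genes. Their median distance was 323 kb, against 106 kb over all far upstream peaks, and their median width 1201 bp, against 1551 bp. These differences were not tested. The protocadherins Pcdh17, Pcdh10 and Pcdh18 (228 kb), the cadherins Cdh9 (332 and 585 kb) and Cdh5, the vascular endothelial cadherin (323 kb), and the contactin Cntn4 (131 and 279 kb) belong here. Sdk1, a synaptic recognition protein gene, had peaks at 84.1 and 112 kb, and Ajap1, a junction protein gene, at 173 and 185 kb. Lrrn3 (911 kb), Lrrtm3 (536 kb) and Negr1 (366 kb) complete the 11 genes.

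Ion channel genes had 11 of 52 (21.2%, 12.2 to 34.0%), among them subunits of glutamate receptors. Gria1 had a peak at 262 kb, Grik1 at 106 kb and Grik2 at 105 kb. Glra1, a glycine receptor subunit gene, had 1 at 107 kb and Trpa1, an irritant-sensing channel gene, 1 at 62.1 kb. Dpp6, an accessory subunit of potassium channels, and Cacna2d3, of calcium channels, had several and are described below.

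Small GTPases, G proteins and their regulators that were matched had 8 of 35 (22.9%, 12.1 to 39.0%). These were at Rgs17, which acts on heterotrimeric G proteins, Rasa1, Arhgap18, Arhgef3, Arl15 and Arhgap24 with 1 each and Rap1b with 2. Trio, Rasgef1b and Tagap, regulators of small GTPases, had far upstream peaks but were not matched. Chromatin regulators had 5 of 22 (22.7%, 10.1 to 43.4%), among them those of Chd9, Arid2 and Arid5b. Kinases, phosphatases and second messenger genes had 13 of 60 (21.7%, 13.1 to 33.6%), among them Dusp26, Pik3c3, Plcb4, Mark1, Dusp4, Vrk1, Spred2 and Dgkb. Spred2 is not a kinase or phosphatase gene and was placed there by symbol. The family of the extracellular matrix and its enzymes had 6 of 37 (16.2%, 7.65 to 31.1%), at Spock3, B3gat1, Mmp16, Sulf2 and St8sia4. Of these, B3gat1 and St8sia4 are glycosyltransferase genes placed there by symbol, and the matrix gene Abi3bp (62.5 kb) was not matched. Solute carriers and other transporters had 7 of 54 (13.0%, 6.42 to 24.4%), among them Slc7a11, the cystine transporter (304 kb), Slc13a1, Slc25a13 and Slc7a1, and the ion pump genes Atp1b1 and Atp2b1. Other G-protein-coupled receptors that were matched had 6 of 60 (10.0%, 4.66 to 20.1%), at Ptger4, Bai1, Rxfp2, Eltd1, Vmn2r10 and Olfr161. The receptor genes Bdkrb2 (142 kb) and Tas2r119 (129 kb) are of this kind but were not matched. Clone-named and predicted genes had 17 of 180 (9.44%, 5.98 to 14.6%).

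Most family shares thus had intervals that include the 15.2% of all named peaks. Those of the zinc finger, nuclear receptor and other factors and of the adhesion genes lay above it, that of the pluripotency list began at it, and that of the clone-named genes lay below it. Among the 883 upstream peaks of named genes alone, 28.7% were far upstream. By that measure the adhesion genes had 17 of 24 (70.8%, 50.8 to 85.1%) and the zinc finger, nuclear receptor and other factors 22 of 46 (47.8%, 34.1 to 61.9%), with intervals above it. The pluripotency list had 5 of 12 (41.7%, 19.3 to 68.0%) and the clone-named genes 17 of 76 (22.4%, 14.5 to 32.9%), with intervals that include it. With 16 families, some intervals can miss the common value by counting error alone. A peak far upstream also needs a wide gap before the next gene start, and gap width was not a term in these shares.

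**Figure D2:**
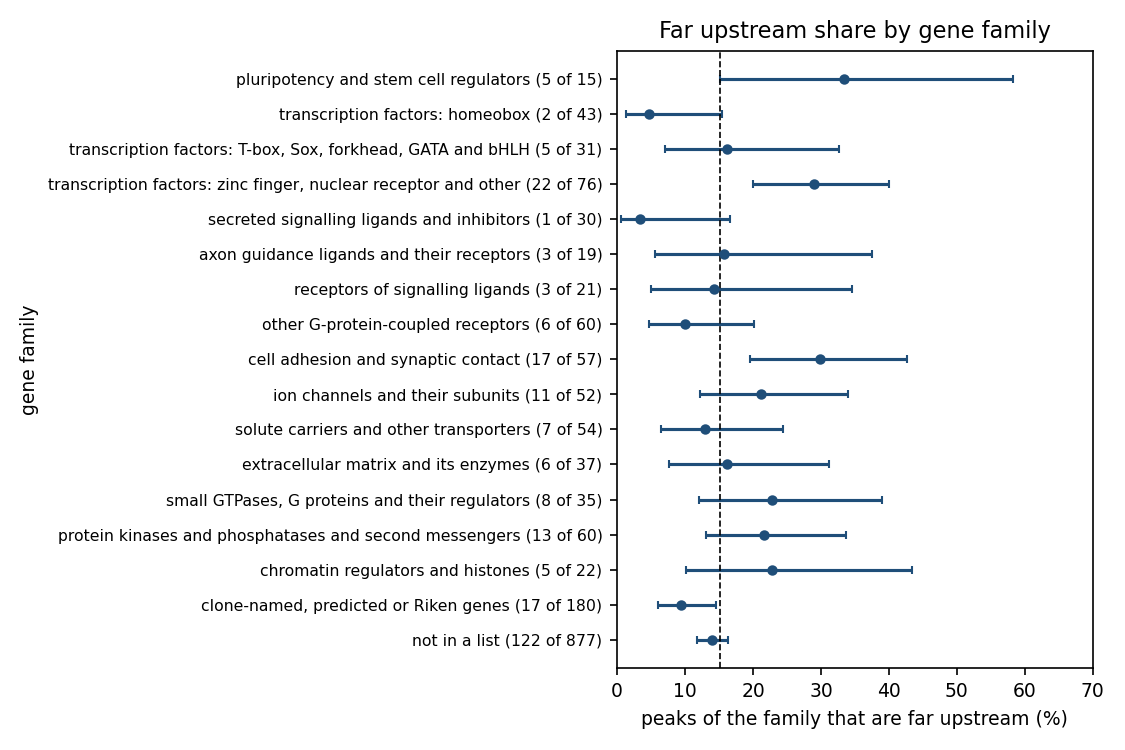
Share in % of the peaks assigned to each gene family that were far upstream, with 95% Wilson intervals. The dashed line is the 15.2% of all 1669 named peaks, and the numbers in brackets are far upstream peaks of all peaks of the family. Adhesion genes (29.8%) and zinc finger, nuclear receptor and other factors (28.9%) sit to the right of the line. Homeobox genes (4.65%) and ligands (3.33%) sit to its left, with intervals that include it.

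The other 122 peaks bordered genes outside these families, of which some are named here as examples, chosen after their values were seen and not as groups. Myt1l, a neuronal zinc finger factor that was not matched to the zinc finger family, had a peak at 242 kb. Adarb2, a brain relative of RNA-editing enzymes, had one at 378 kb. Gap43, a growth cone protein gene, had 1 at 108 kb, Lrrc7 at 106 kb, Auts2 at 68.8 kb, Rph3a at 68.4 kb, Sorl1 at 56.9 kb and Syt6 at 52.0 kb. Aldh1a3, a retinoic acid-producing enzyme, had 1 at 127 kb, Hpgd, which inactivates prostaglandins, at 125 kb, Insig1, a regulator of sterol synthesis, at 68.4 kb and Cyp24a1, which degrades vitamin D, at 50.7 kb. Genes with general roles in RNA processing and translation were also present, such as Eif4g2 (142 kb) and Prpf4b (62.0 kb).

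Genes with a far upstream peak had a median length of 64.3 kb in the deposited coordinates (220 genes). The medians were 19.0 kb for genes with an upstream peak within 10 kb (246 genes) and 32.9 kb for those with one at 10 to 50 kb (361 genes), and they share some genes. For genes with a peak inside, where long genes have more room, the median was 82.3 kb (320 genes). Across the 220 genes, length and the distance of the farthest peak had a Spearman correlation of 0.01. The gene was on the plus strand for 137 peaks and on the minus strand for 116.

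A single far upstream peak was listed for 193 genes, 2 for 22, 3 for 4 and 4 for 1 gene, so that 27 genes held 60 of the 253 peaks. Sez6l, a neuronal membrane protein gene, had 4, at 54.2, 56.1, 64.6 and 86.9 kb, within 34.7 kb on chromosome 5 (113060400 to 113095100). Their widths were 1751, 1901, 1651 and 1951 bp, and the nearest pair was 0.199 kb apart. Dpp6 had 3, at 50.7, 70.9 and 101 kb, within 52.6 kb on chromosome 5, and the one farthest from the gene was the widest, at 2051 bp. Arglu1, which encodes a splicing and transcription cofactor, had 3 at 222, 257 and 295 kb, within 75.3 kb on chromosome 8 (8912200 to 8987450).

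In other genes the peaks were spread out. Those of Dusp26 lay at 102, 441 and 591 kb and those of Brunol4 at 462, 759 and 905 kb, over 490 and 444 kb. In 14 of the 27 genes the far upstream peaks spanned less than 50 kb, and in 9 they spanned more than 100 kb. Among genes with 2, the shortest spans were those of Actrt2 (5.45 kb from end to end), Cacna2d3 (5.95 kb), Osbpl8 (9.85 kb), Ajap1 (12.7 kb), Csmd1 (13.7 kb), Rnf32 (15.6 kb) and Rap1b (19.2 kb). The Csmd1 pair was 401 and 413 kb from its gene start, whereas those of Actrt2, Cacna2d3 and Osbpl8 were 52.0 to 76.1 kb from theirs. Fzd7 (26.3 kb), Sdk1 (29.6 kb), Gm10168 (35.1 kb), Chd9 (45.2 kb), Gm10247 (45.8 kb) and Pcmtd1 (48.7 kb) followed. The remaining genes with 2 were Sulf2, Krtap7-1, Ttc29, Klf6, Cntn4, Cdh9, Ccrn4l, Pcdh17 and Pcdh10, the last with 1446 kb from end to end.

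**Figure D3:**
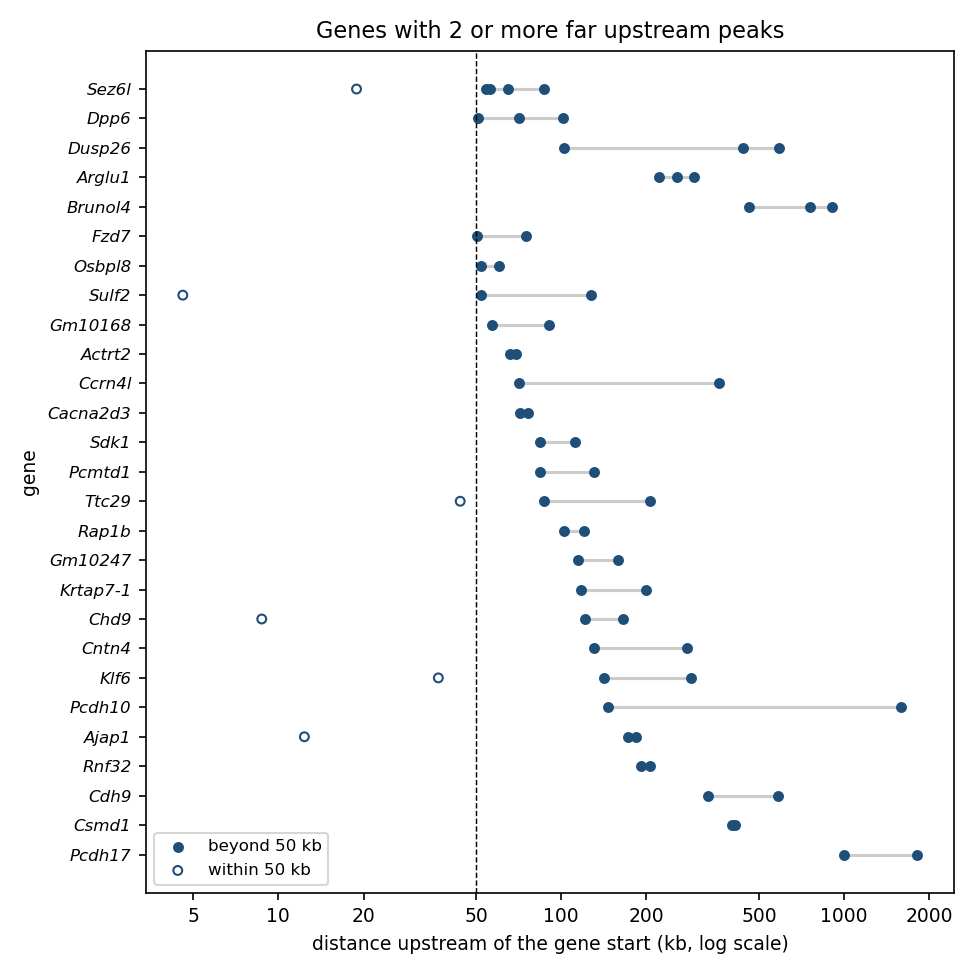
Distance upstream of the gene start in kb (log scale) of each upstream peak at the 27 genes with 2 or more far upstream peaks. Filled points lie beyond 50 kb (dashed line), open points nearer, and grey lines join the filled points of a gene. The 4 points of Sez6l lie together while those of Dusp26 and Pcdh10 are far apart.

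Of the far upstream peaks, 51 (20.2%, 15.7 to 25.5%) had another peak of the list within 50 kb, against 21% of all 2560 peaks and 21.3% of the peaks of named genes. The share was 15.8% (11.8 to 20.9%) for upstream peaks within 10 kb and 23.5% (19.5 to 28.0%) for those at 10 to 50 kb. It fell across the distance bins, from 24 of 75 (32.0%) at 50 to 75 kb to 8 of 42, 13 of 82 and 6 of 40 in the next 3 and 0 of 14 beyond 500 kb, and this order was not tested. For 45 of the 51 the nearest peak was assigned to the same gene. Peaks close together often share the nearest start, so this count follows in part from the annotation. The matching count over all peaks with a neighbour is not given here. At the other extreme, 38 peaks had no other peak within 1 Mb, and the same count over all 2560 peaks is not given here. The median gap to the nearest peak was 263 kb. It was 278 kb for upstream peaks within 10 kb and 212 kb for those at 10 to 50 kb. The most isolated, named after their values were seen, were those of Podxl, a sialomucin gene (2653 kb to the nearest peak), and Lrrtm3 (2519 kb).

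The 51 peaks fell into 31 runs of peaks with gaps of at most 50 kb, of which 22 held 2 peaks and 9 held 3 or more. The run at Sez6l was the longest, with 6 peaks over 111 kb, of which 4 were far upstream, 1 was nearer and 1 was inside the gene. The runs at Arglu1 and Dpp6 held 3 far upstream peaks each and no other. A run on chromosome 13 held 3 upstream peaks of Arl15, at 43.1, 48.7 and 54.8 kb, and 1 of Hspb3, so the 50 kb threshold cut through it. The same holds for Trio, a guanine nucleotide exchange factor gene, with peaks at 12.7, 42.3 and 67.3 kb, for Spred2 at 46.5 and 61.0 kb, and for Ttc29 at 43.9 and 87.1 kb. The runs of Sorl1 with Sc5d and of Vrk1 with Papola each held 1 far upstream peak and 2 peaks of the neighbour.

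The genes on the far side of the stretches were named from the order of protein-coding genes in RefSeq. For 49 genes that neighbour also had a peak, and therefore mm9 coordinates in the list, and all far upstream peaks of the gene lay between the 2 deposited genes. Among the 49 are Arhgap24, Ralyl and Sema3a, whose peaks could lie within the longer RefSeq models named above. Stretch lengths rest on the deposited models. From the start of the gene to the near end of the neighbour, the stretch was 458 kb long at the median, from 107 kb between Apod and Bdh1 to 4520 kb between Brunol4 and Pik3c3. The farthest far upstream peak lay at a median of 31.6% of the way from its gene to the neighbour. Each peak is listed under the nearest start, so where the neighbour's start faces the gene this position cannot pass the middle by much. The median thus follows in part from the annotation and is not a result about where peaks sit. Examples, chosen after their values were seen, follow. Gli2 was separated from Inhbb, an activin subunit gene, by 362 kb, and Foxf1a from Irf8 by 328 kb. Rnf32 was separated from Shh, a Hedgehog ligand gene, by 729 kb, with its peaks at 192 and 206 kb on the Rnf32 side. The gap was 150 kb between Tbx5 and Tbx3, 908 kb between Tbx3 and Med13l, and 2685 kb between Arrdc3 and Nr2f1, an orphan nuclear receptor gene. Pcdh17 and Olfm4 were 4421 kb apart, Pcdh10 and D3Ertd751e 3619 kb, and Mef2c and Cetn3 1707 kb. Sez6l and Myo18b, an unconventional myosin gene, were 240 kb apart.

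In 5 stretches both bordering genes had far upstream peaks, 14 in all. Between Slc7a11 and Ccrn4l, which encodes the deadenylase nocturnin, 781 kb held 3 peaks, 1 assigned to Slc7a11 and 2 to Ccrn4l. Between Wdfy3 and the deposited model of Arhgap24, 411 kb held 2, of which that of Arhgap24 could lie within its longer RefSeq model. Auts2 and Gatsl2, 1558 kb apart, had 1 each and Gatsl2 a nearer one of 2651 bp. The longest of the 5, between Brunol4 and Pik3c3, held 10 peaks: 3 of Brunol4, 1 of Pik3c3 and 6 of ENSMUSG00000046636, a gene without a symbol. In these stretches each peak is listed under whichever start is nearer, so the gene named for a peak in the middle rests on a small difference in distance. The Slc7a11 to Ccrn4l stretch had such a peak at 53.6% of its length.

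**Figure D4:**
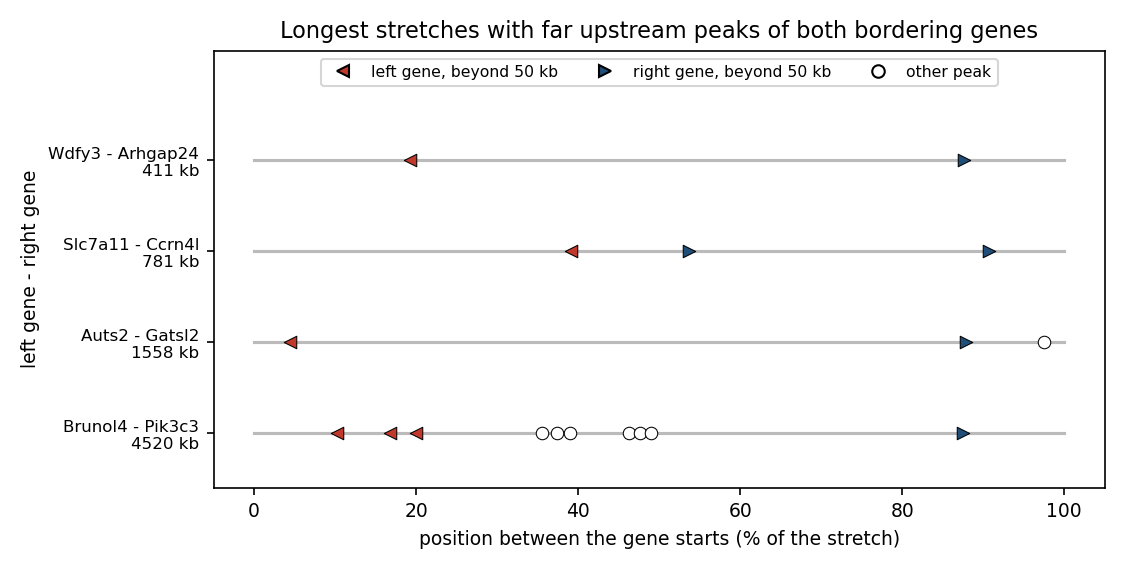
Position of each peak between the starts of 2 facing genes, in % of the stretch, for the 4 longest of the 5 stretches in which both genes had far upstream peaks, with the length in kb under the names. Red triangles were assigned to the left gene, blue to the right gene, and open circles are other peaks of the list. Between Brunol4 and Pik3c3 the 6 open circles lie from 35.5% to 49.0% of the way.

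Far upstream peaks were found on chromosomes 1 to 19. Chromosome 5 had most, 34 at 27 genes (13.4% of the 253, 9.78 to 18.2%), beside 10.3% of all peaks of named genes. Among the 136 peaks beyond 100 kb, chromosome 5 had 11 (8.09%), below that share, and chromosome 8 had most, 20 (14.7%). Over all far upstream peaks, chromosome 8 had 26 (10.3%, 7.11 to 14.6%) beside 6.83%, and chromosome 10 had 23 (9.09%, 6.13 to 13.3%) beside 7.25%. Chromosome 11 had 3 of its 73 named peaks far upstream (4.11%, 1.41 to 11.4%), at Gria1, Glra1 and Spred2, and chromosome 7 had 5 of 83 (6.02%, 2.60 to 13.3%). Chromosome 2 had 8 of 102 (7.84%, 4.03 to 14.7%). These 3 intervals lie below the 15.2% of all chromosomes together. Chromosome 8, with 26 of 114 (22.8%, 16.1 to 31.3%), lay above it. Chromosome 16 had 13 of 52 (25%, 15.2 to 38.2%). None of the 16 named peaks of chromosome X was far upstream, which allows a share of up to 18.8% (3 counts of 16), with a Wilson upper limit of 19.4%. On chromosome 5, 14 of the 34 had another peak within 50 kb, among them those of Sez6l, Dpp6, Sdk1 and Rnf32, while on chromosome 6 none of 15 had one. Chromosome 5 had 172 peaks of named genes and chromosome 6 had 72. The same counts over all peaks of these 2 chromosomes are not given here, so this is not shown to be particular to far upstream peaks. Gene spacing differs between chromosomes, and its part in these shares was not tested.

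**Figure D5:**
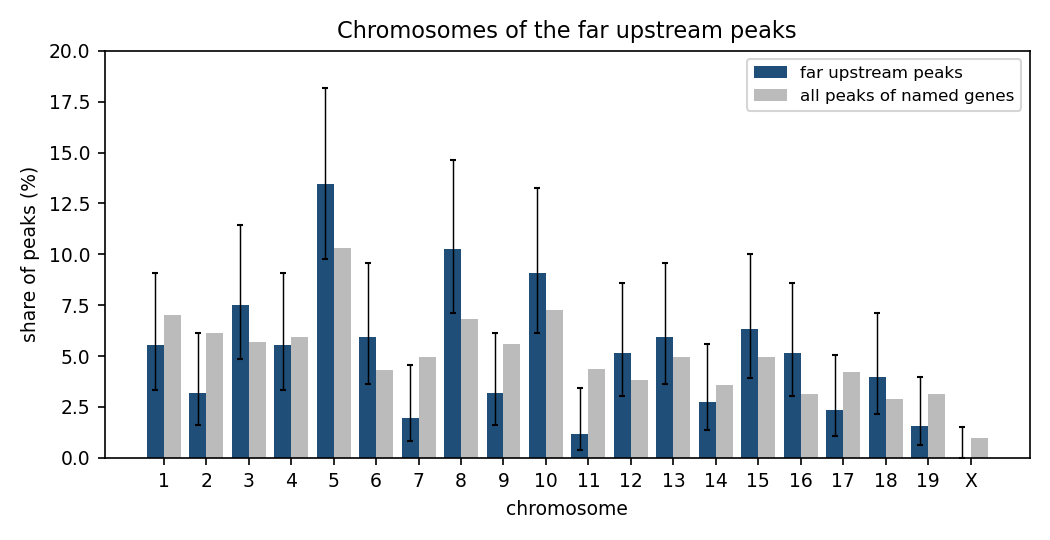
Share in % of the 253 far upstream peaks (blue, with 95% Wilson intervals) and of all 1669 peaks of named genes (grey) on each chromosome. The blue bar is higher than the grey one on chromosomes 5 and 8, among others, and lower on chromosomes 2, 7 and 11, and chromosome X has no blue bar.

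Most genes had far upstream peaks and no others in this list. Peaks per gene were few in the whole list too, with 1669 peaks at 1409 named genes. The same share over all named genes is not given here, so this is not shown to be particular to the group. Of the 220 genes, 46 had 60 peaks of other classes too: 25 genes had a nearer upstream peak, 14 a peak inside and 13 a downstream peak. At Thrb, a thyroid hormone receptor gene, a peak inside lay 1.43 kb from an end of the gene beside the far one at 67.3 kb. At Apod, a lipocalin gene, the nearer peak was 1.61 kb from the start and 1901 bp wide, beside 1101 bp for the one at 50.8 kb. Sulf2, an extracellular heparan sulfate sulfatase gene, had a peak of 2401 bp at 4.59 kb and others of 2001 and 1901 bp at 52.0 and 128 kb. Cited2, a transcriptional cofactor gene of heart development, had 1 at 6.23 kb and 1 at 516 kb. Chd9 had 1 at 8.74 kb besides its pair at 122 and 166 kb.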

How the data were processed

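Chromatin immunoprecipitated with macroH2A1 antibody or IgG from E14 cells was sequenced, 1 library each. The authors mapped reads with Bowtie to NCBIM37 (mm9), per the submitters' processing notes. The deposited list has the columns of ChIPpeakAnno and peak names that begin with CCAT, per the file headers and values. For caller settings, control and library depth the entry is: not given in the sources used here. No score or count per peak was analysed. The deposited measurements are other quantities than signal: coordinates, widths and distances in bp. Each peak has the gene with the nearest start. Far upstream peaks were taken from the authors' class, symbol and shortest distance. Gaps between peaks, runs, stretches, medians and Wilson 95% intervals were computed with Python 3.11.15, pandas 2.3.3 and scipy 1.17.1. Gene order, names and start sequences came from RefSeq (GRCm38.p6). The steps that pick the class and the gaps were tested on simulated data. Peaks of 1 library are not replicates, so no test was run.

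The group of peaks, the families and the lists were chosen with earlier results of these data known. The pattern for ion channels was corrected after 1 gene had been placed there wrongly. Genes were named if they had 2 or more far upstream peaks, were among the 10 farthest or 10 widest (with ties), among the 3 nearest to the threshold on each side or in a run of 3 or more peaks, and from each family all where it had at most 8, otherwise the 8 with the widest peak, with all transcription factors, ligands, receptors and pluripotency genes. Genes outside this rule, such as those set beside neighbours or given as examples, were named after their values were seen. Results for a few genes that these rules name are not reported here.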

Additional observations from a re-analysis of the deposited data

How the results depend on the processing

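Of 25 alternatives to 6 results, 17 left the value within its interval or the count within 1.5 times, and 8 did not. Of all alternatives, 5 were chosen after the data were seen. The number of far upstream peaks was 136 beyond 100 kb, 415 beyond 25 kb and 116 among peaks wider than the median, instead of 253, which follows from keeping fewer or more peaks. Genes with 2 or more such peaks numbered 15 beyond 100 kb instead of 27. The share with another peak nearby was 10.7% with a gap of up to 25 kb, 26.9% with up to 100 kb and 14% for peaks beyond 100 kb, instead of 20.2%. The share on chromosome 5 was 8.09% beyond 100 kb instead of 13.4%, and the cause was not tested. The median width stayed between 1526 and 1601 bp in all its alternatives. Transcription factor families held 11.5% (8.10 to 16.0%) of the 253 far upstream peaks, beside 8.99% of all peaks of named genes. That share stayed between 11.5% and 12.7% in all its alternatives. It is another measure than the 19.3% of these families' own peaks that were far upstream. Depth per peak is unknown and limits every value. No paired analysis was possible because each group is 1 library and no test was run.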
